A study of Homo sapiens with 6 samples.

Results

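The 10 genes described here are cyclins, cyclin-dependent kinases and kinase inhibitors on an nCounter cancer immunology panel: the D-type cyclins CCND1, CCND2 and CCND3, cyclin E1 (CCNE1), cyclin B1 (CCNB1), the kinases CDK2 and CDK6, and the inhibitors CDKN1A (p21), CDKN2A (p16 and ARF) and CDKN2B (p15). They were chosen by name, all 10 were found among the 770 probes, and all 10 passed the filter on low values that 669 genes passed. They are not all such genes of the panel, which also measured the cyclin CCNA1 and the inhibitor CDKN1C. Barcode counts had been taken from 6 libraries of total RNA. Of these, 3 were labelled as PC3 cells transfected with a BTN1A1 expression vector and 3 as PC3 cells transfected with an empty vector (EV). PC3 is an established human prostate carcinoma line grown out of a metastasis in bone, and BTN1A1 is a butyrophilin, a membrane protein of the immunoglobulin superfamily. Within each set 1 library was untreated and labelled 48 h, 1 had received interferon-gamma at 100 ng/ml for 24 h and 1 for 48 h. All cells were grown in the same serum-supplemented medium. The design asked how the vector and the cytokine changed transcript levels. With 1 library in each of the 6 groups there was no replicate of any group, and nothing in the labels says whether a transfected set was a pool or 1 clone.

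Cyclins are regulatory subunits that appear in turn through the cell cycle and switch on their partner kinases. D-type cyclins, made in response to growth factors, pair with CDK4 and CDK6 and begin the phosphorylation of the retinoblastoma protein; cyclin E with CDK2 completes it and starts DNA replication, and cyclin B with CDK1 drives mitosis. The inhibitors CDKN2A and CDKN2B bind CDK4 and CDK6, while CDKN1A acts on several cyclin and kinase pairs. CDKN1A is a classical target of p53, CDKN2B of transforming growth factor beta, and both arrest cells at the border of G1 and S. Interferon-gamma slows the division of many epithelial cancer cells.

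The 3 libraries labelled BTN1A1 stood apart from the EV libraries in ways that bear on every difference between the vectors. STAT3, a transcription factor gene that PC3 cells are known to have lost, had 383, 593 and 444 counts in the libraries labelled BTN1A1 (untreated, 24 h and 48 h), against 20, 10 and 17 counts in the EV libraries, the level of the background. The summed scaled level of 3 genes known to be lost in PC3, STAT3 among them, was 1199 to 1389 in the libraries labelled BTN1A1 and 59.8 to 107 in EV. The epithelial markers EPCAM and CDH1, the only 2 of 12 listed that the panel measured, had a summed level of 46.8 to 110 in the libraries labelled BTN1A1 and of 403 to 432 in EV, and none of 7 listed prostate markers was measured. The 4 measured of 6 endothelial markers summed to 66.0 to 114 in the libraries labelled BTN1A1 and to 202 to 320 in EV. Their median was lower, 17.5 to 31.3 scaled counts in the libraries labelled BTN1A1 and 35.0 to 43.1 in EV. In edgeR 2 of the 4 were called, KDR (-2.81, SE 0.35) and PECAM1 (-1.52, SE 0.35), both lower. The 7 measured of 13 mesenchymal markers summed to 1034 to 1441 in the libraries labelled BTN1A1 and to 1448 to 1541 in EV. The largest part of the mesenchymal sum was CDH2, and the median of these 7 markers was 134 to 145 scaled counts in the libraries labelled BTN1A1 and 31.3 to 40.1 in EV. Only ZEB2 of the 6 tested was called, higher by 2.93 (SE 0.32, edgeR adjusted p = 0.000215). The libraries labelled BTN1A1 therefore go against their label as PC3, and a difference between the vectors is also one between cultures that may not share an origin; the 2 cannot be told apart. In edgeR's test 283 of 669 genes, or 42.3%, differed between the vectors. Total counts were 221633 to 297242 in the libraries labelled BTN1A1 and 286341 to 441611 in EV, and counts were scaled by 20 housekeeping genes. T, NK, B and myeloid markers, which neither culture was taken to express, gave the background: their median was 20 to 22 counts in the libraries labelled BTN1A1 and 18 to 24 in EV. Of the 35 tested, NCAM1 and CD3G were called higher in edgeR and CD68 lower, with 62, 103 and 93 CD68 counts in EV. Not every marker was therefore at background, and the median stands for it. BTN1A1 itself had 0 probes. In bulk RNA, fewer cells in a given phase and less RNA per cell cannot be told apart.

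The bases before the start sites of 4 members are shown because CCNE1 and CDK6 passed the test between the vectors and because CCNB1 and CDKN2B, like CCNE1, had a single-library difference past 2-fold after the cytokine. They are from RefSeq's table for GRCh38.p14, read on the strand of the gene, 250 bases each, ending at the base before the start. Capitals mark GC boxes (GGGCGG) and CCAAT boxes (CCAAT) on either strand.
CCNE1, chr19:29811741-29811990, plus strand: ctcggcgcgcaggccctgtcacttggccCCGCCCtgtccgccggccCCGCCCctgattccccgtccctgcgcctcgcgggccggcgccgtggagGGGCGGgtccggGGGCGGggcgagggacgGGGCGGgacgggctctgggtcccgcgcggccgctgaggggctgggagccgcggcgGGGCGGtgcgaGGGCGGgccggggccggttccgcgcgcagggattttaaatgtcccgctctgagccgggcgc
CDK6, chr7:92836574-92836823, minus strand: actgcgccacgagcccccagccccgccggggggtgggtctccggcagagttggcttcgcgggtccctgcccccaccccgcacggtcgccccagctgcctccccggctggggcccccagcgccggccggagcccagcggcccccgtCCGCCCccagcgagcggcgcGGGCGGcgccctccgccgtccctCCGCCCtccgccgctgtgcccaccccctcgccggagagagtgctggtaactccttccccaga
CCNB1, chr5:69166900-69167149, plus strand: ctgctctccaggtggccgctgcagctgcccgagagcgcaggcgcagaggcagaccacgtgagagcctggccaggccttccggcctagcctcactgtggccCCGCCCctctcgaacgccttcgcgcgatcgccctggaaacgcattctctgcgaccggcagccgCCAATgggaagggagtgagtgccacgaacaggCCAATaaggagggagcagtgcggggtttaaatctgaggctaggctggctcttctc
CDKN2B, chr9:22009306-22009555, minus strand: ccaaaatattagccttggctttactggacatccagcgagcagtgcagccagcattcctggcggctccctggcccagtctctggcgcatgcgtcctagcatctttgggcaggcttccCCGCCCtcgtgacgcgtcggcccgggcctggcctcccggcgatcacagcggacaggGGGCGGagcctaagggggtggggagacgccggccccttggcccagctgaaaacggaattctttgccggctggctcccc

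The CCNE1 window held 7 GC boxes, the CDK6 window 3, the CDKN2B window 2 and the CCNB1 window 1, and 42.6% of all 35116 such windows held at least 1. CCNB1 alone of these 4 held CCAAT boxes, 2 of them, a letter run found in 32% of all windows and known as the site of the factor NF-Y, which drives many mitotic genes. Of the 10 members 7 had a window, 11 windows in all, since CCND3, CDK6 and CDKN2A have more than 1 start; CCND1, CCND2 and CDK2 are not shown. The interferon-gamma activated site TTCNNNGAA, found on either strand in 6.57% of all windows, had no match in the 11, nor had the core of the interferon-stimulated response element, GAAA, any 2 bases and GAAA (3.02%), nor the E2F letters TTTCGCGC or TTTGGCGC (0.968%). Such a result says only that these letters are not in these windows.

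Of the D-type cyclins, CCND2 was much higher and CCND1 lower in the libraries labelled BTN1A1, and CCND3 did not pass the test. CCND2, at chr12:4273762-4305353, had 1656, 1825 and 1197 counts in the libraries labelled BTN1A1 (untreated, 24 h, 48 h), against 21, 18 and 15 counts in EV. Its EV counts lay at the level of the immune markers, so that CCND2 was not detectable above the background there. With scaled values under 20 raised to 20, its mean was 73.1-fold higher in the libraries labelled BTN1A1. That size depends on the floor and scaling: the log2 ratio of the untreated libraries was 6.10 here and 4.88 to 6.49 over the alternatives. It passed edgeR's test (adjusted p = 1.75e-05); the fitted log2 difference of 6.35 (SE 0.33) is set by the background level in EV and does not measure the size of the change. CCND1, at chr11:69641156-69654474, went the other way, with 308, 509 and 268 counts in the libraries labelled BTN1A1 and 1839, 3137 and 2189 counts in EV. Scaled by the housekeeping genes this was 346 ± 80.9 in the libraries labelled BTN1A1 and 2421 ± 501 in EV (SD over 3 conditions), with no overlap. CCND1 fell by 2.81 on the log2 scale (SE 0.26, edgeR adjusted p = 9.43e-05). CCND3 had 88, 121 and 65 counts in the libraries labelled BTN1A1 and 146, 135 and 86 in EV, and its scaled values overlapped. Its log2 difference of -0.50 (SE 0.32) did not pass (edgeR adjusted p = 0.267) and was 0.042 with total counts as library sizes.

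**Figure D1:**
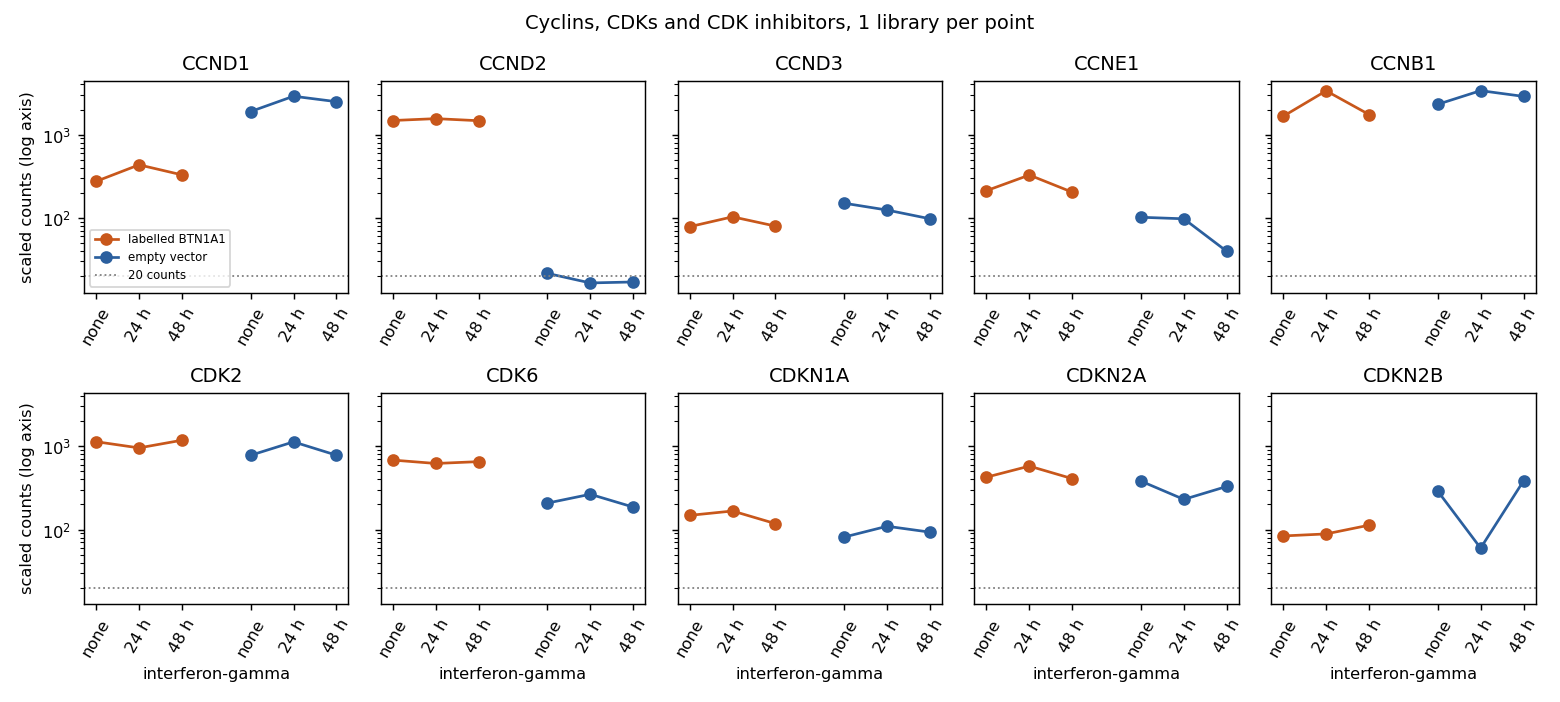
Housekeeping-scaled counts (log axis) of the 10 genes in each of the 6 libraries, 1 point per library, untreated and after 24 h and 48 h of interferon-gamma, with the libraries labelled BTN1A1 left and EV right in each panel; the dotted line marks 20 scaled counts. CCND2 lies near the line in EV and at 1468 to 1555 in the libraries labelled BTN1A1, and CDKN2B is low in the 24 h EV library alone.

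Among the later cyclins and the kinases, CCNE1 and CDK6 were higher in the libraries labelled BTN1A1. CCNE1 had 238, 384 and 166 counts there, against 99, 106 and 35 in EV. The scaled ranges, 204 to 327 in the libraries labelled BTN1A1 and 39.7 to 102 in EV, did not overlap. CCNE1 rose by a log2 difference of 1.70 (SE 0.35, edgeR adjusted p = 0.00508). CDK6, a partner of the D cyclins, had 765, 729 and 533 counts in the libraries labelled BTN1A1 and 202, 288 and 164 in EV. Within either set it varied little: it was 652 ± 30.5 scaled counts in the libraries labelled BTN1A1 and 220 ± 40.8 in EV (SD over 3 conditions). CDK6 rose by 1.58 (SE 0.28, edgeR adjusted p = 0.00254). CDK2, the partner of cyclin E, had 1272, 1121 and 963 counts in the libraries labelled BTN1A1 and 757, 1226 and 688 in EV. Its values overlapped, and its difference of 0.30 (SE 0.28) did not pass. CCNB1, the mitotic cyclin, had 1861, 3936 and 1421 counts in the libraries labelled BTN1A1 and 2245, 3660 and 2533 in EV, also overlapping, with a difference of -0.40 (SE 0.25) that did not pass and was 0.14 with total counts.

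None of the 3 inhibitors passed in edgeR, DESeq2 or limma. At an unadjusted p under 0.05 there were 0 in edgeR, CDKN1A and CDKN2B in DESeq2, and CDKN1A in limma. CDKN1A had 166, 196 and 96 counts in the libraries labelled BTN1A1 and 79, 119 and 82 in EV. Its scaled values, 118 to 167 in the libraries labelled BTN1A1 and 81.2 to 110 in EV, did not overlap, though the log2 difference of 0.60 (SE 0.31) gave an edgeR adjusted p of 0.159. CDKN2A had 477, 678 and 333 counts in the libraries labelled BTN1A1 and 371, 250 and 290 in EV. Its scaled values, at 408 to 578 in the libraries labelled BTN1A1 and 230 to 382 in EV, did not overlap either, and the difference was 0.59 (SE 0.32, edgeR adjusted p = 0.182). The value for CDKN2A depended on the untreated pair: without either untreated library it was 0.82. With condition in the model, either omission takes the same pair out of the difference between the vectors, so the 2 runs are 1 result. CDKN2A encodes p16 and, from another start, ARF, and the name of its probe does not say which transcript was counted. CDKN2B, its neighbour on chromosome 9, had 94, 104 and 92 counts in the libraries labelled BTN1A1 and 282, 65 and 338 in EV. The sets overlapped through the 24 h EV library, and the difference of -1.05 (SE 0.51) did not pass (edgeR adjusted p = 0.140). Without that library, or without the 24 h library labelled BTN1A1, which takes out the same pair, the difference was -1.78.

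**Figure D2:**
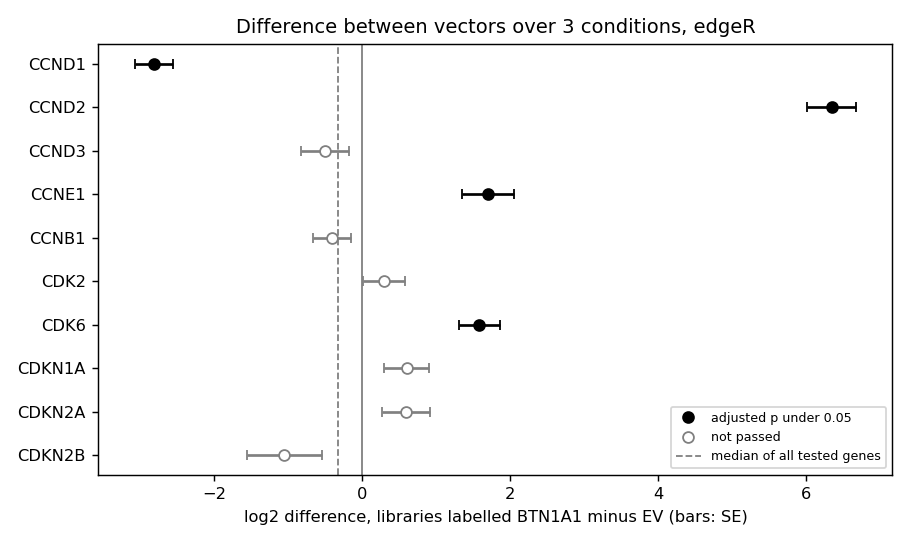
Log2 difference between the libraries labelled BTN1A1 and EV for each gene, with the SE restated from edgeR's test as bars; filled points passed at an adjusted p under 0.05 and the dashed line is the median of all 669 tested genes (-0.32). CCND2 at 6.35, a value set by the background in EV, and CCND1 at -2.81 lie farthest apart.

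Counted together, 3 of the 10 genes were higher in the libraries labelled BTN1A1 and 1 was lower in edgeR's test, while over all 669 genes 11.7% were called higher and 30.6% lower. The median log2 difference was 0.45 over the 10 genes and -0.32 over all genes tested. The median of all genes moved with the scaling, to 0.02 with TMM library sizes and to -0.55 with 15 of the housekeeping genes. The split of calls moved with it: it was 78 higher and 205 lower with the housekeeping genes, 112 higher and 156 lower with TMM, and 120 higher and 150 lower with total counts, where CDK2, CDKN1A and CDKN2A passed as well. The 20 housekeeping genes were themselves unequal between the vectors, with 3 called higher and 4 lower. The 4 calls among the cyclins and CDK6 held in each of 14 other settings, with CCND2 fitted at 6.13 to 6.88 against the background in EV, CCND1 between -3.03 and -2.27, CCNE1 between 1.40 and 2.24 and CDK6 between 1.36 and 2.12. In 6 of the 10 genes the 3 values of one vector did not overlap those of the other, 5 above and 1 below in the libraries labelled BTN1A1, and 51.6% of all tested genes did not overlap, 17% above and 34.5% below. Nothing in the labels says that the libraries of a set came from separate cultures, so the p-values cover the scatter among these 6 libraries, possibly technical. With 2 residual degrees of freedom they lean on the variance pooled over genes.

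Each condition gave the same direction for CCND1, CDK6 and CCNE1 when its 2 libraries were set side by side. So it did for CCND2, and for CCND3, CCNB1, CDKN1A and CDKN2A, which did not pass edgeR's test. Only CDK2 and CDKN2B changed sign, so a shared direction does not set the called genes apart. CCND1 had log2 ratios of -2.78 untreated, -2.74 at 24 h and -2.92 at 48 h, libraries labelled BTN1A1 over EV. CDK6 had 1.71, 1.23 and 1.81, and CCNE1 1.06, 1.75 and 2.36. Among the inhibitors, CDKN2B had -1.79, 0.57 and -1.77, and CDKN2A 0.16, 1.33 and 0.31, so that both stood out at 24 h. In the untreated libraries 3 members were at least 2-fold higher and 2 lower, with 11.3% and 27.8% of all genes. At 24 h it was 4 higher and 1 lower, with 9.25% and 32.4%, and at 48 h 3 higher and 2 lower, with 13% and 28%. These ratios of 1 library to another carry no test.

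Ratios of 2 probes within a library need no scaling between libraries, though a ratio carries the unequal efficiency of its probes and is read only between libraries. The count of CCND2 over that of CCND1 was 5.38, 3.59 and 4.47 in the libraries labelled BTN1A1 (untreated, 24 h, 48 h) and 0.0114, 0.00574 and 0.00685 in EV. The log2 difference in this ratio was 8.88, 9.29 and 9.35 in the 3 conditions, and is limited by the background in EV. CDK6 over CDK2 was 0.601, 0.650 and 0.553 in the libraries labelled BTN1A1 and 0.267, 0.235 and 0.238 in EV, a mean log2 difference of 1.29 ± 0.16 (SD, 3 conditions). CCNE1 over CCNB1 was 0.128, 0.0976 and 0.117 in the libraries labelled BTN1A1 and 0.0441, 0.0290 and 0.0138 in EV. CDKN2B over CDKN2A was 0.197, 0.153 and 0.276 in the libraries labelled BTN1A1 and 0.760, 0.260 and 1.17 in EV, where the 24 h library lay within the range of the libraries labelled BTN1A1. These pairs of genes were chosen with their values known and carry no test.

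The other cell cycle genes of the panel differed between the vectors in both directions, and their counts stand beside 11.7% of all tested genes called higher and 30.6% called lower. Of 6 further G1/S, retinoblastoma and E2F genes 3 rose and 1 fell: RBL2, a relative of the retinoblastoma protein (0.92, SE 0.29), E2F3, a factor that turns on S phase genes (0.88, SE 0.26), and MYC, a growth-promoting factor (0.86, SE 0.26), rose, and CCNA1, cyclin A1, fell by 2.68 (SE 0.45). CCNA1 had 18, 12 and 14 counts in the libraries labelled BTN1A1, at background, and 53, 72 and 181 in EV, so the size of its fall is set by that background. Of 11 mitosis genes 0 rose and 2 fell, the cytokinesis protein ANLN (-1.14, SE 0.26) and the survivin gene BIRC5 (-1.13, SE 0.24), no more than the share of all genes called lower. Of 11 replication and repair genes 5 rose and 1 fell; the exonuclease EXO1 (1.52, SE 0.31) and the Fanconi anaemia gene FANCA (1.38, SE 0.29) rose, as did the chromatin remodeller HELLS by a value between theirs, and thymidylate synthase TYMS fell by 1.33 (SE 0.24). The edgeR adjusted p of these named genes ran from 0.00201 for CCNA1 and 0.00282 for TYMS to 0.0321 for RBL2. The medians were 0.43, -0.29 and 0.63 for these 3 lists, beside the -0.32 of all genes.

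Genes upstream of the D cyclins and the inhibitors were also called in both directions, again beside 11.7% of all tested genes called higher and 30.6% lower, and beside 3 of 20 housekeeping genes higher and 4 lower. Of 13 mitogen and early response genes 3 rose and 6 fell, among them the growth factor receptor EGFR (-2.94, SE 0.37) and 3 genes that its pathway induces, FOSL1 (-7.75, SE 0.35), SPRY4 (-5.40, SE 0.40) and DUSP5 (-4.71, SE 0.53). FOSL1 is a subunit of the AP-1 transcription factor. It had 53, 48 and 46 counts in the libraries labelled BTN1A1 and 6704, 13216 and 11467 in EV. DUSP5 had 51, 94 and 46 counts in the libraries labelled BTN1A1 and 2400, 840 and 1694 in EV. The low counts of both are not far above the background, which limits the size of their falls. EGFR had 47, 28 and 36 counts in the libraries labelled BTN1A1, near the background, and 202, 324 and 292 in EV. The size of its fall is therefore limited by that background. Of 9 genes of transforming growth factor beta signalling, upstream of CDKN2B, 2 rose and 4 fell: the ligands TGFB2 (-4.02, SE 0.35) and INHBA (-3.28, SE 0.40) and the receptor TGFBR2 (-2.61, SE 0.33) fell, and ID4 rose by 3.89 (SE 0.36). Of 6 genes of the p53 pathway, upstream of CDKN1A, 2 rose and 0 fell. Of these, 1 is also among the 3 genes known to be lost in PC3, and the other is the cell death gene BBC3 (2.72, SE 0.35). BBC3 had 306, 136 and 199 counts in the libraries labelled BTN1A1 and 28, 24 and 37 in EV, near the background. The size of its rise is therefore limited by that background. For the genes named in these groups the edgeR adjusted p lay between 8.84e-06 for FOSL1 and 0.000517 for BBC3. Their part in the differences of the cyclins was not tested.

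**Figure D3:**
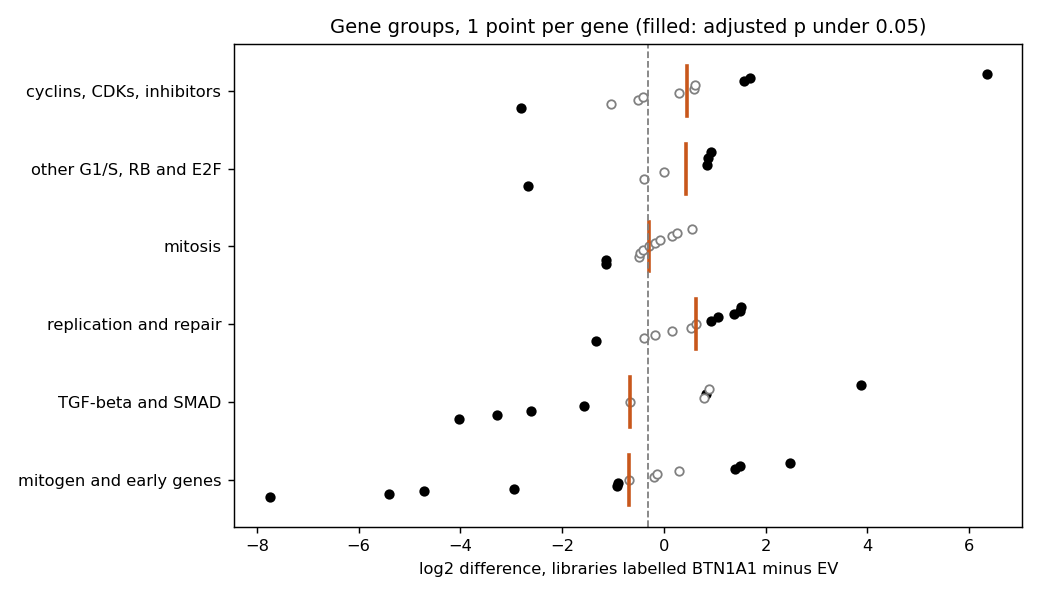
Log2 difference between the libraries labelled BTN1A1 and EV for each tested gene of 6 groups, 1 point per gene; filled points passed edgeR's test, orange bars are group medians and the dashed line is the median of all tested genes. The 10 cyclins, kinases and inhibitors run from -2.81 to 6.35 (CCND2, against the background in EV), and the 11 mitosis genes from -1.14 to 0.56.

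In the EV cells most of these genes were within 2-fold of their untreated level after interferon-gamma, with CCNE1 and CDKN2B as the exceptions at 1 time each. With 24 h and 48 h as 2 treated libraries, 0 of the 10 genes passed edgeR's test (0 at an unadjusted p under 0.05, and 0 in DESeq2 and in limma), while 11.4% of all tested genes did, 10.3% higher and 1.05% lower. The log2 differences ran from -0.56 for CCNE1 (SE 0.51) to 0.51 for CCND1 (SE 0.50), and with SEs of 0.47 to 0.59 a 2-fold change is about 2 SE. Library against library, without a test, the scaled count of CDKN2B was 59.8 at 24 h against 290 in the untreated library, a log2 ratio of -2.28 (95% counting interval -2.69 to -1.88). At 48 h it was 384, a ratio of 0.40 to the untreated library, so the low value was that of 1 library. Of 662 genes compared at 24 h, 6.8% were at least 2-fold lower and 12.4% at least 2-fold higher, and CDKN2B was the only member of either kind. The 24 h EV library had the largest total count of the 6, and its CDKN2A was also low, at 230 scaled counts against 382 untreated, a ratio of -0.73. The part of culture time, which also differs between this library and the untreated one, was not tested. Both treated libraries were above the untreated one in CCND1, at 2888 and 2484 against 1891 scaled counts, and in CCNB1, at 3369 and 2874 against 2309; with total counts as library sizes both log2 differences turned to values below 0 (-0.036 and -0.11).

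CCNE1 was low in the 48 h EV library. The untreated library had 102 scaled counts, the 24 h library 97.6 and the 48 h library 39.7. The log2 ratio of 48 h to the untreated library was -1.36 (95% counting interval -1.96 to -0.79), from 35 counts against 99. Of 673 genes 3.42% were at least 2-fold lower at 48 h and 14.7% at least 2-fold higher, and CCNE1 was the single member in either group. Beside it CCND3 had a ratio of -0.62 (interval -1.02 to -0.23), and the ratios of the other 8 genes lay between -0.21 and 0.40. At 48 h against 24 h, 5.23% of 631 genes were at least 2-fold higher, CDKN2B among them (2.68), and 1.11% at least 2-fold lower, CCNE1 among them (-1.30). These intervals cover counting error only and say nothing of the spread between cultures.

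In the libraries labelled BTN1A1 the 24 h treated library had a higher CCNB1 than the untreated one, and no other member moved 2-fold. The untreated library was labelled 48 h, so culture time also differs in the 24 h ratios, and its part was not tested. CCNB1 had 1659 scaled counts untreated, 3353 at 24 h and 1742 at 48 h. Its log2 ratio at 24 h was 1.02 (95% counting interval 0.94 to 1.10), and it was the only member at least 2-fold apart, where 3.05% of 558 genes were that much higher and 3.23% lower. CCND1 and CCNE1 were also higher at 24 h, by ratios of 0.66 and 0.62, and CDKN2A by 0.44. At 48 h 0 members were 2-fold apart, with 4.86% of 638 genes higher and 0% lower, and the ratios ran from -0.33 for CDKN1A to 0.43 for CDKN2B. At 48 h against 24 h 0 members were 2-fold apart, beside 7.02% of 641 genes higher and 0.78% lower, and CCNB1 was nearest to it at -0.94. CCND2 stayed close to its untreated level, at 1555 and 1468 scaled counts in the treated libraries against 1476 untreated. Over both times 0 of the 10 passed edgeR's test (0 at an unadjusted p under 0.05, 0 in DESeq2 and 0 in limma), beside 1.05% of all genes, with log2 differences from -0.10 for CDK6 (SE 0.47) to 0.62 for CCNB1 (SE 0.52).

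**Figure D4:**
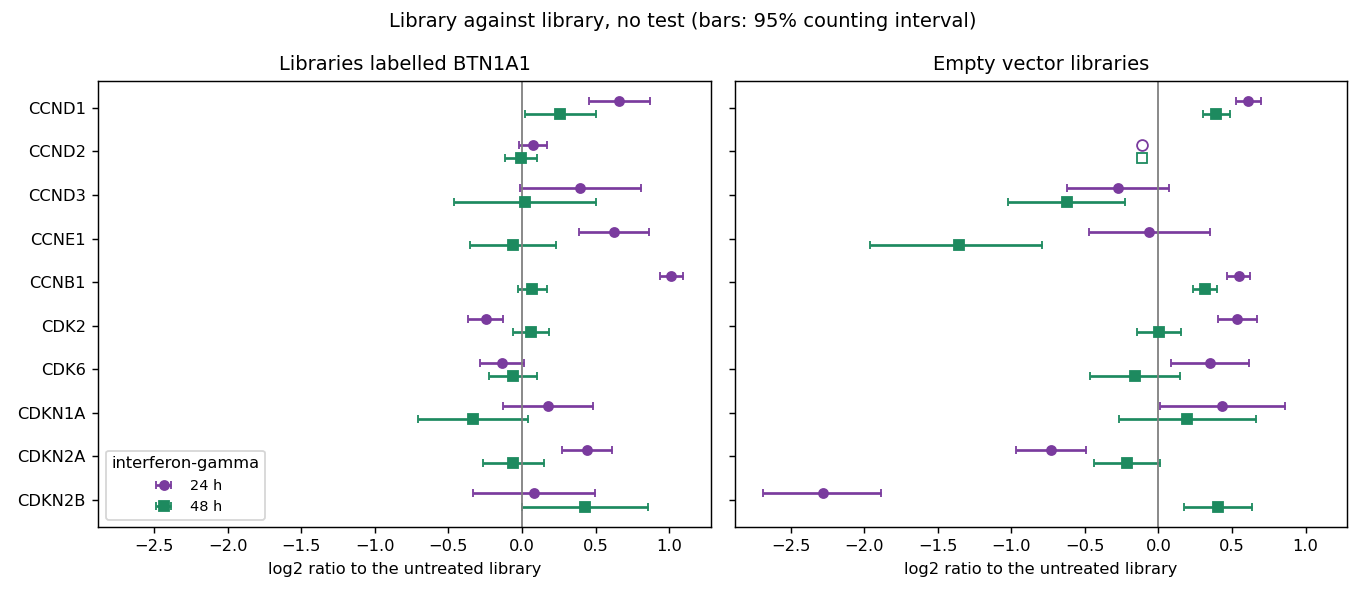
Log2 ratio of each treated library to the untreated library of the same vector for the 10 genes, after 24 h (circles) and 48 h (squares) of interferon-gamma, with 95% counting intervals; open symbols are values with a library under 20 scaled counts, which was raised to 20. CDKN2B at 24 h (-2.28) and CCNE1 at 48 h (-1.36) in EV and CCNB1 at 24 h (1.02) in the libraries labelled BTN1A1 are the ratios past 2-fold. The untreated libraries are labelled 48 h, so culture time also differs in the 24 h ratios.

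An interaction term asked whether the cytokine response depended on the vector. None of the 10 genes passed, against 4.48% of all genes, 0.299% higher and 4.19% lower (0 at an unadjusted p under 0.05 in edgeR, and 0 in DESeq2 and limma). The response differences, libraries labelled BTN1A1 minus EV, ran from -0.38 for CDK2 (SE 0.68) to 0.88 for CCNE1 (SE 0.71), with 0.65 for CDKN2B (SE 0.71). The SEs of 0.68 to 0.76 leave room for differences of 2-fold or more, so a shared response is not shown. In the model over both vectors, 0 of the 10 passed at 48 h against untreated, where 0.897% of all genes did, with CCNE1 at -0.67 (SE 0.42, edgeR adjusted p = 0.891) and CDKN2B at 0.41 (SE 0.57). The same held at 24 h, where 0% of genes passed edgeR and CCNB1 was the only member at an unadjusted p under 0.05 (0.79, SE 0.31). Culture time also differs in that comparison, and its part was not tested. Between 48 h and 24 h of treatment 0 members and 0% of all genes passed edgeR; 9 of the 10 had a value below 0 while the median of all genes was 0.32. Of these, CCNE1 stood at -0.93 (SE 0.41) and CCNB1 at -0.59 (SE 0.31), and CDKN2B, the exception, at 1.37 (SE 0.62). Leaving out either untreated library takes the untreated pair out of this comparison, and in both cases the CDKN2B value was 1.53. Without the 24 h EV library it was 0.34. In each of these 3 comparisons DESeq2 and limma also called 0 of the 10, with 2, 0 and 3 at an unadjusted p under 0.05 in DESeq2 and 1, 0 and 1 in limma (24 h, 48 h, and 48 h against 24 h).

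The genes whose pattern over the 6 libraries was most like that of a member were sought for the 4 members with at least 4-fold between libraries. For CCND2 they were SOX2 (r = 0.999), ID4 (0.999) and PRR5 (0.997), and for CCND1 they were IRF3 (0.999), SGK1 (0.999) and ICOSLG (0.996), as Pearson's r of log2 scaled counts. Such values are easily reached, since 68 genes exceeded 0.9 with CCND2 and 117 of 668 with CCND1, and for both the 6 libraries fell into 2 clusters by vector. CCNE1 was most like CD276 (0.958), SFXN1 (0.958) and GOT2 (0.956). CDKN2B was most like SFRP1 (0.965), FAM124B (0.925) and APLNR (0.921), all 3 of which stayed within 11.1 to 40.9 scaled counts, near the background.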

How the data were processed

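The assay was NanoString's nCounter PanCancer IO 360 panel, which counts barcoded probes on total RNA, per the series' title and design text. The deposited values are whole-number counts for 770 probes in 6 libraries. No source used here says how the authors treated the scanner output or control probes, and no background was subtracted. Library sizes were taken from 20 housekeeping genes (geometric mean). A gene was tested if 2 or more libraries reached 20 scaled counts, which 669 did. edgeR 4.0.16 under R 4.3.3 ran its quasi-likelihood test, with Benjamini-Hochberg adjustment over all 669 and a threshold of 0.05. One model held condition and vector; the other held vector, treatment (24 h and 48 h as 2 treated libraries) and their interaction. The SE is derived from the log2 difference and its F statistic. Alternatives were DESeq2 1.42.0, limma 3.58.1, other library sizes and filters, and leaving out each library. The scripts were tested on simulated data.

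For ratios of single libraries, scaled values below 20 were set to 20, no test was run, and the exact 95% interval covers counting error only. The members and the gene lists were chosen with earlier results of these data known. All 10 members are named; from each list up to 4 more genes that passed are named by size, and some are not reported here. All 10 names matched RefSeq symbols (GRCh38.p14), the source of the coordinates.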

Additional observations from a re-analysis of the deposited data

Results flagged for a closer look

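Scaled by the housekeeping genes, the response of CCND3 to interferon-gamma had opposite signs in the vectors. In the libraries labelled BTN1A1 its log2 ratio to the untreated library was 0.39 at 24 h and 0.02 at 48 h, and in EV it was -0.27 and -0.62. The difference in response was 0.66 (SE 0.76) and did not pass (edgeR adjusted p = 0.869). CCND3 had 65 to 121 counts in the libraries labelled BTN1A1 and 86 to 146 in EV, and the counting intervals of 3 of the 4 ratios include 0. The 48 h ratio in the libraries labelled BTN1A1 ran from -0.37 to 0.02 over other scalings and floors, so its sign was not kept.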

How the results depend on the processing

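The differences of CCND1, CCND2, CCNE1 and CDK6 between the vectors kept direction and call in all 14 alternatives. Alternatives were run for all 10 members between the vectors and for 2 or 4 members in each interferon-gamma comparison except 24 h against untreated over both vectors, which had none. Of these values 304 kept direction and call, 10 turned and 10 newly passed. Between the vectors, leaving out either library of a condition takes out the same pair, so such runs are not separate results. With total counts as library sizes, CCND3 (0.042) and CCNB1 (0.14) turned to higher in the libraries labelled BTN1A1, CDKN2B at 48 h turned to -0.016, and within EV CCND1 turned to -0.036 and CCNB1 to -0.11. CDKN2B followed single libraries: over both vectors at 48 h it ran from -0.27 without the 48 h EV library to 1.10 without the untreated one (-0.03 without the untreated library labelled BTN1A1), its response difference from -0.14 without the 24 h EV library to 2.54 without the 48 h one, and its value within EV from -2.27 without the 48 h EV library, which passed, to 0.40 without the 24 h one. CCNE1 within the libraries labelled BTN1A1 ran from -0.060 without the 24 h library to 0.62 without the 48 h one. The cause was not tested.

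Counts of all genes past the threshold moved more. For 24 h against untreated the 0 genes became 25 with total counts, 5 with 15 housekeeping genes and 21 in DESeq2. For 48 h against untreated the 6 became 29 with total counts, 11 with 15 housekeeping genes, 30 in DESeq2 and 11 with no filter, and 0 with TMM, DESeq2 size factors, limma and a minimum of 50 (37, 45, 44 and 37 at an unadjusted p under 0.05). For 48 h against 24 h the 0 became 2 with total counts and 5 in DESeq2. The 30 response differences became 15 with TMM and 19 with DESeq2 size factors. Within EV the 76 became 165 with total counts. Within the libraries labelled BTN1A1 the 7 became 0 with TMM, DESeq2 size factors, limma and a minimum of 50 (17, 18, 12 and 15 at an unadjusted p under 0.05). Leaving out each library in turn gave 209 to 299 genes for the vectors, 0 to 86 at 24 h, 0 to 95 at 48 h, 0 to 13 for 48 h against 24 h, 13 to 38 for the response difference, 48 to 90 within EV and 1 to 9 within the libraries labelled BTN1A1. Where a condition then kept 1 library, it was taken to vary like the others. The test between the vectors already held condition as a term, which pairs the libraries of each condition. Beyond that, no paired analysis was possible because the labels give no replicate numbers. Counts near 20, as for CCND2 in EV, cannot be told from background.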
